A study of Mus musculus with 8 samples.

Results

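The genes described here encode chains of the fibrillar collagens (Col1a1, Col1a2, Col3a1, Col5a1, Col5a2, Col5a3 and Col11a1) and of collagens that attach to the surface of fibrils (Col12a1, Col14a1 and Col16a1). They were chosen by name: a row of the deposited table counted when its only annotated gene symbol was one of these, and the row with the highest mean was kept for each gene. All 10 genes were found, in 12 rows, among 22180 genes with a name.

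Expression was measured on 8 arrays, each with RNA of 1 pool of aortic tissue from 8 newborn mice (postnatal day 0) of strain C57BL/6. The 4 groups, with 2 arrays each, were ascending and descending aorta of wild-type pups and of fibulin-4 knockout pups. Fibulin-4 is a secreted protein that is needed to assemble elastic fibres and to bring lysyl oxidase to its substrates. The ascending piece started at the aortic valve and ended at the ductus arteriosus, and the descending piece reached down to the diaphragm. The labels describe the knockout as lacking the gene, name no promoter or Cre, and give no control other than wild-type. Because animals were pooled, no value belongs to a single pup, and a pool averages over its animals. Arrays of 1 group are biological replicates by their labels.

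As background, a collagen fibril is built from triple helices that line up side by side. Type I collagen, made of the Col1a1 and Col1a2 chains, and type III collagen, made of Col3a1 chains, form the bulk of fibrils in the wall of large arteries. Types V and XI are minor fibrillar collagens that start fibrils and limit their diameter, and chains of both types can join in mixed molecules. Type XI is best known from cartilage. Types XII, XIV and XVI belong to the fibril-associated collagens with interrupted triple helices (FACIT), which sit on fibrils and link them to other matrix proteins.

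Values are log2 values made by RMA, so a difference of 1 is a doubling of the estimated signal, and the level of one gene cannot be set against that of another because probes differ in brightness. The median of all rows lay between 4.68 and 4.89 on the 8 arrays. On the replicate 2 arrays of wild-type ascending and wild-type descending aorta, the spread across named genes was narrower, with an interquartile range of 1.80 and 1.74 against 2.14 to 2.28 elsewhere. Results are therefore also given without this pair of narrow arrays. Genotype labels were not checked against the targeted gene, which is not analysed here. A gene was called when limma's adjusted p, over all 22180 genes, was under 0.05. In whole tissue, fewer cells of a type and less RNA per cell cannot be told apart.

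Averaged over both segments, Col11a1 and Col12a1 were higher in the knockout and were called, and the other 8 genes were not. Called genes with a rise made up 0.0676% of all genes tested. The arrays of both genotypes did not overlap in either segment for these 2 genes, with the knockout higher, as in 7.81% of all genes.

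Col11a1, which encodes the alpha-1 chain of type XI collagen, stood at 5.37 and 5.11 in the wild-type ascending arrays and at 7.14 and 6.97 in the knockout ascending arrays. In descending aorta it stood at 6.11 and 5.70 in wild-type and at 7.79 and 7.79 in knockout. Every knockout array was thus above every wild-type array, whichever segment they came from. The share of all genes separated in this way was not counted. The averaged log2 change was 1.85 (SE 0.18), a 3.61-fold rise, with a 95% interval from 1.44 to 2.26 and a limma adjusted p of 0.0144. Within segments the change was 1.82 (SE 0.26) in ascending and 1.89 (SE 0.26) in descending aorta, with limma adjusted p of 0.103 and 0.193, so neither segment was called by itself. With the narrow pair left out, the averaged change was 1.68, with a limma adjusted p of 0.0433.

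Col12a1, which encodes the chain of type XII collagen, a FACIT collagen of dense and load-bearing connective tissue, showed 6.95 and 7.15 in wild-type and 8.87 and 8.95 in knockout ascending aorta. The descending values were 8.31 and 8.05 in wild-type and 9.58 and 9.39 in knockout. Here too all knockout arrays lay above all wild-type arrays, a separation whose share over all genes was not counted. The averaged log2 change was 1.59 (SE 0.17), a rise of about 3.0-fold, with a 95% interval from 1.19 to 1.98 and a limma adjusted p of 0.0202. The change was 1.86 (SE 0.25) in ascending and 1.31 (SE 0.25) in descending aorta, with limma adjusted p of 0.103 and 0.385. With the narrow pair left out, the averaged change was 1.57, with a limma adjusted p of 0.0471.

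Both calls depended on single arrays. Each fit without an array has 1 group of 1 array and fewer residual degrees of freedom than the full fit, for every gene. Leaving out either wild-type ascending array kept both genes called. Leaving out any other single array ended both calls: the limma adjusted p of Col11a1 was then 0.0555 and 0.0628 without wild-type descending replicates 1 and 2, 0.119 and 0.126 without knockout ascending replicates 1 and 2, and 0.125 and 0.141 without knockout descending replicates 1 and 2. For Col12a1, in the same order, it was 0.0756, 0.0797, 0.133, 0.206, 0.165 and 0.141. The size of the change moved little, from 1.75 to 1.96 for Col11a1 and from 1.52 to 1.65 for Col12a1. When all 41345 rows of the table were tested, named or not, the adjusted p was 0.233 for Col11a1 and 0.264 for Col12a1.

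**Figure D1:**
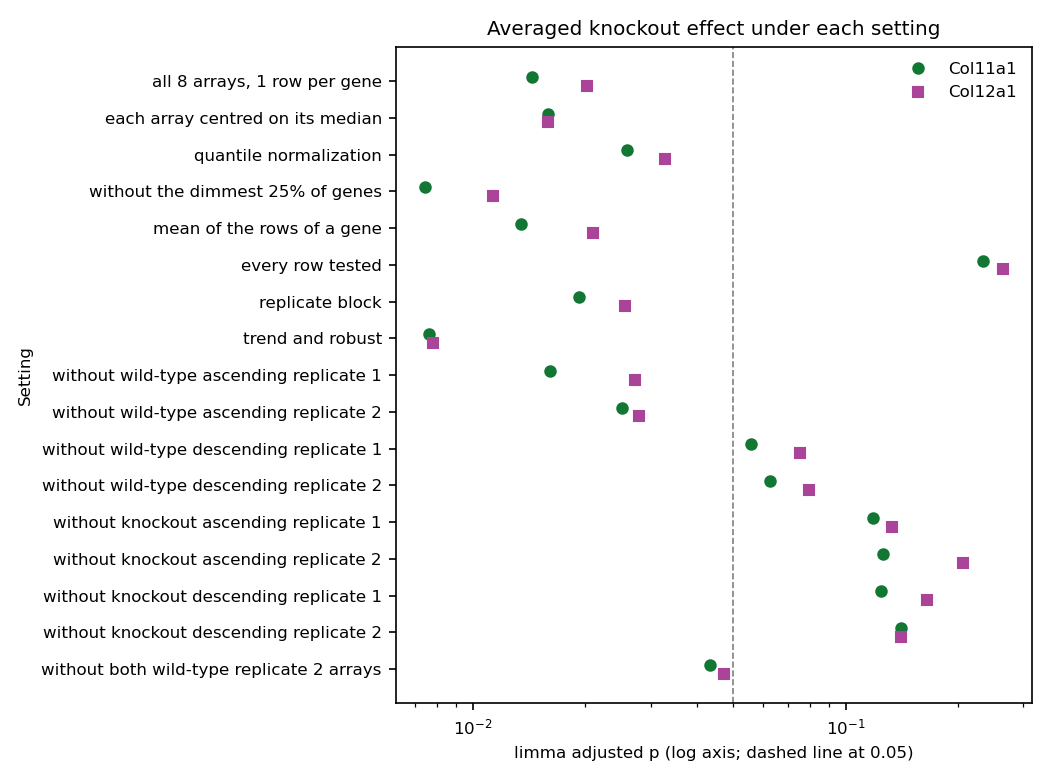
Limma adjusted p of Col11a1 (circles) and Col12a1 (squares) for the averaged knockout effect, on a log axis, under each setting on the vertical axis; the dashed line marks 0.05. Both genes lie left of the line in the top row, at 0.0144 and 0.0202, and right of it when every row is tested or when a wild-type descending or knockout array is left out.

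RefSeq promoter windows of build GRCm38.p6 were available for Col11a1, Col1a2, Col3a1, Col5a1, Col5a3 and Col16a1, which is 6 of the 10 genes. The 250 bases before the transcript start are shown for Col11a1, which was called, and for Col1a2 and Col3a1, chains of the bulk fibril collagens whose changes were small. They lie at chr3:114030290-114030539, chr6:4505368-4505617 and chr1:45311288-45311537, all on the plus strand, and are written 5′ to 3′ with every match to a searched motif, on either strand, in capitals. For Col11a1 the start used in the table lies inside a longer annotated transcript, so its window holds part of that transcript.
Col11a1: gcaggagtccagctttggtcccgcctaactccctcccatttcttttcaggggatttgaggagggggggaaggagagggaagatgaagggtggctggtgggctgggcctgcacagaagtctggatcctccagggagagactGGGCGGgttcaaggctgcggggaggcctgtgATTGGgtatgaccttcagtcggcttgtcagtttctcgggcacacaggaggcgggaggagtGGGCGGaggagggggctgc
Col1a2: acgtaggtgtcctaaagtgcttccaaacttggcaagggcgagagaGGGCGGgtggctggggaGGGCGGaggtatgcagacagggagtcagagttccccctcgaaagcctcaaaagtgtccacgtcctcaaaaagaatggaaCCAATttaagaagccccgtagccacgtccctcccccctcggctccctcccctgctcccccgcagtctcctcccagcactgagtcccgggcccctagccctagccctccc
Col3a1: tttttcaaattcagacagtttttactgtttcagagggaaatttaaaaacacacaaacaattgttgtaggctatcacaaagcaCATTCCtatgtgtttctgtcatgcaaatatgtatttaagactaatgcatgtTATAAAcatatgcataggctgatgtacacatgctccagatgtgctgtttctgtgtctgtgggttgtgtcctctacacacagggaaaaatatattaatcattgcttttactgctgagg
The motifs were TATAAA for the TATA box, CCAAT for the box of that name, GGGCGG for the GC box, TGANTCA for AP-1 and GGAATG for TEAD, searched on both strands; no 2 of them share a match in the windows shown. Col11a1 and Col1a2 each held 1 CCAAT, read as ATTGG in Col11a1, and 2 GGGCGG. Col3a1 held neither and had 1 TATAAA and 1 GGAATG, read as CATTCC. Its window was 35.2% G and C, against 62.4% in Col11a1, 62.0% in Col1a2 and a median of 52.4% over all 32851 windows. CCAAT was in 4 of the 6 windows and in 33.9% of all windows of this length, GGGCGG in 5 of 6 and in 32.7%, TATAAA in 1 of 6 and in 12.4%, GGAATG in 1 of 6 and in 12.6%, and TGANTCA in 0 of 6 and in 6.75%. A match describes these letters only.

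The 3 type V chain genes had smaller changes, and none was called. Col5a1, whose chain is in most type V collagen molecules, stood at 8.18 and 7.66 in wild-type and 8.33 and 8.45 in knockout ascending aorta, and at 8.18 and 7.87 against 8.54 and 8.68 in descending aorta. Both knockout arrays were the higher ones in each segment, and the wild-type replicates spread by an SD of 0.37 and 0.22 (n = 2). Over both segments its log2 change averaged 0.53 (SE 0.19; 95% interval 0.10 to 0.96), with a limma adjusted p of 0.369. Without the narrow pair, which held the lower wild-type value in each segment, it was 0.32.

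Col5a2, the partner chain of Col5a1, stood at 8.30 and 7.68 in wild-type and 8.69 and 8.55 in knockout ascending aorta. In descending aorta it stood at 7.97 and 7.53 against 8.47 and 8.25. The groups did not overlap in either segment, and the wild-type SD was 0.44 in ascending and 0.31 in descending aorta (n = 2). Its log2 change over both segments was 0.62 (SE 0.21; 95% interval 0.15 to 1.08), with a limma adjusted p of 0.347, and 0.35 without the narrow pair. Col5a3, a rarer type V chain, stood at 6.01 and 5.83 against 5.88 and 5.59 in ascending and at 5.85 and 6.00 against 6.24 and 6.02 in descending aorta. Its averaged log2 change was 0.01 (SE 0.18; 95% interval -0.39 to 0.41).

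Among the chains of the bulk fibril collagens, Col1a1 stood at 10.55 and 10.79 in wild-type and 11.01 and 11.06 in knockout ascending aorta, and at 10.84 and 10.82 against 11.28 and 11.43 in descending aorta. Both knockout arrays were above both wild-type arrays in each segment. The averaged log2 change was 0.45 (SE 0.17; 95% interval 0.07 to 0.83), or 1.36-fold, with an unadjusted limma p of 0.0253 and an adjusted p of 0.381. It was 0.50 without the narrow pair.

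Col3a1 stood at 11.24 and 11.09 against 11.35 and 11.23 in ascending aorta, where the groups overlapped, and at 11.36 and 11.24 against 11.42 and 11.56 in descending aorta, where they did not. Its averaged log2 change was 0.16 (SE 0.17; 95% interval -0.22 to 0.54). The interval leaves out a rise of the size seen in Col11a1 or Col12a1.

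Col1a2 had 2 probe sets that differed. On the brighter one, used here, it stood at 11.83 and 12.16 in wild-type and 12.09 and 12.15 in knockout ascending aorta, and at 12.28 and 12.37 against 12.21 and 12.30 in descending aorta, so that the groups overlapped in both. Its averaged log2 change was 0.03 (SE 0.17; 95% interval -0.36 to 0.41). On the dimmer one the values were 10.54 and 10.45 against 10.57 and 10.78 in ascending, and 10.50 and 10.47 against 10.92 and 10.90 in descending aorta, with no overlap in either. The averaged change there was 0.30 (SE 0.17), with a limma adjusted p of 0.516, and the descending change was 0.43 (SE 0.24) against -0.08 (SE 0.24) on the brighter one. The difference between both probe sets was not tested. The dimmer probe set of Col5a1 gave an averaged change of 0.31 (SE 0.19), with overlap in ascending aorta, where wild-type replicate 2 was the highest of the 4 arrays at 6.36.

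**Figure D2:**
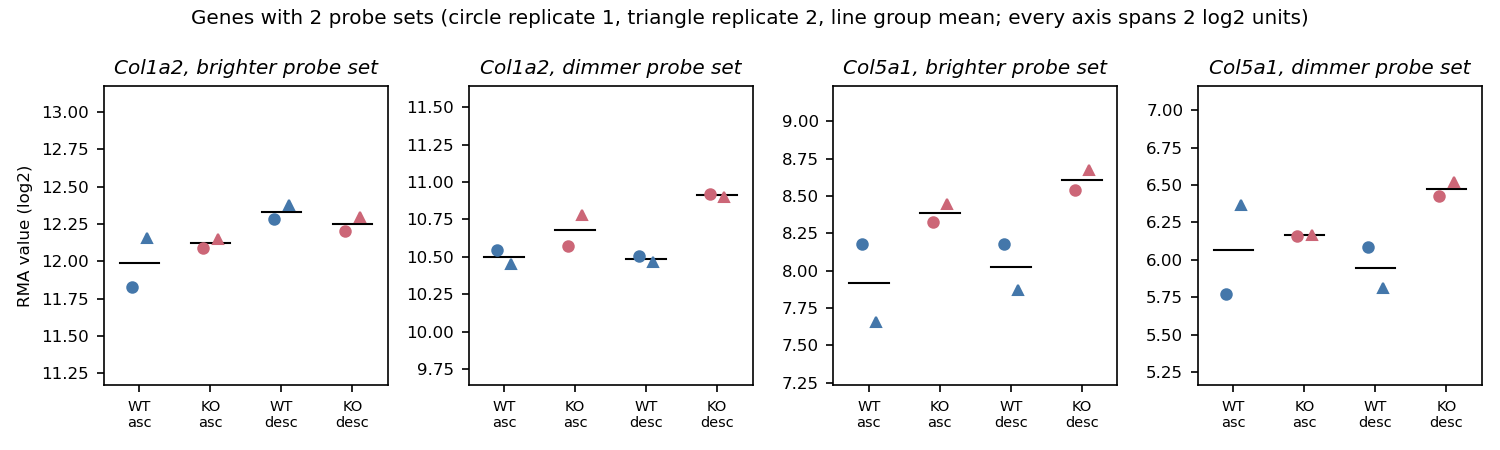
RMA values (log2, vertical axes of equal span) of both probe sets of Col1a2 and Col5a1 by group, for replicate 1 (circles) and replicate 2 (triangles), with the group mean as a line; WT is wild-type, KO knockout, asc ascending and desc descending. In descending aorta the dimmer Col1a2 probe set stands at 10.92 and 10.90 in knockout above 10.50 and 10.47 in wild-type, while the brighter one overlaps.

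The other FACIT genes had small averaged changes. Col14a1, whose product binds fibrils and is widespread in soft connective tissue, stood at 8.75 and 8.69 in wild-type and 8.52 and 8.47 in knockout ascending aorta, so both knockout arrays were the lower ones. In descending aorta it stood at 8.68 and 8.15 against 8.86 and 8.66, with overlap. Averaged, the log2 change was 0.06 (SE 0.19; 95% interval -0.36 to 0.48). Col16a1 stood at 6.34 and 5.42 against 6.18 and 5.96 in ascending aorta, the widest spread between replicates of any member, and at 6.09 and 6.04 against 6.28 and 6.35 in descending aorta. Its averaged change was 0.22 (SE 0.22; 95% interval -0.29 to 0.72), and -0.03 without the narrow pair.

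**Figure D3:**
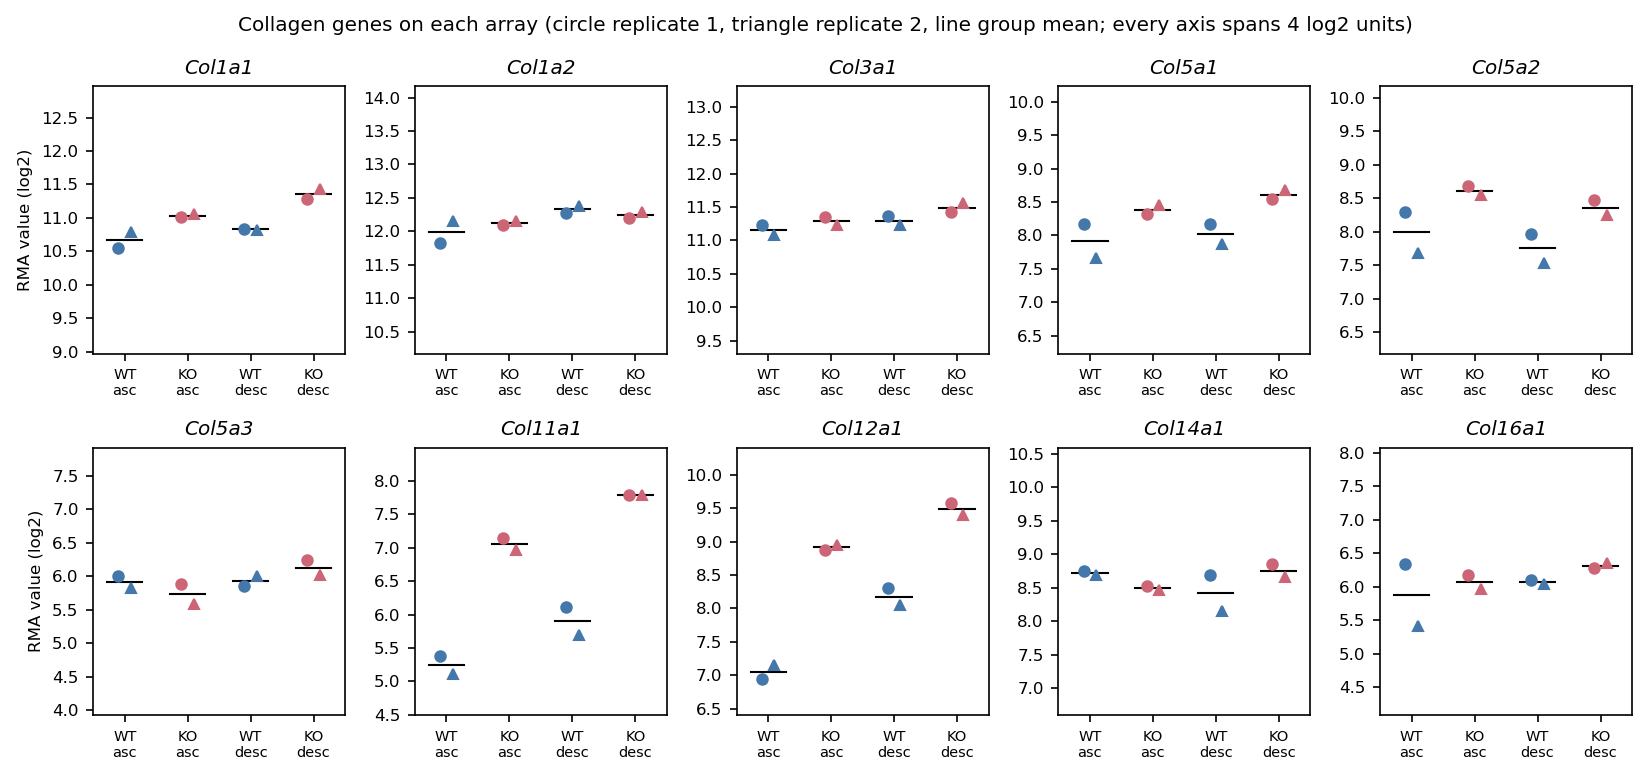
RMA values (log2) of the 10 collagen genes by group, for replicate 1 (circles) and replicate 2 (triangles), with the group mean as a line; every vertical axis spans 4 log2 units, WT is wild-type, KO knockout, asc ascending and desc descending. Averaged over both segments, Col11a1 and Col12a1 stand higher in knockout by 1.85 and 1.59, and the other genes by 0.01 to 0.62. Within segments, the change was below 0 for Col14a1 (-0.22) and Col5a3 (-0.18) in ascending aorta and for Col1a2 (-0.08) in descending aorta.

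Over the 10 genes, the averaged knockout change was above 0 in 10, against 49.8% of all genes and 79.4% of the brightest 20% of genes. The median was 0.33, beside -0.0013 over all genes and 0.24 over the brightest 20%. Col5a3, Col1a2 and Col14a1 were close to 0, at 0.01, 0.03 and 0.06. These genes and Col16a1 changed sign under some settings. At an unadjusted limma p under 0.05, 5 of the 10 were higher (Col1a1, Col5a1, Col5a2, Col11a1 and Col12a1), against 7.57% of all genes, and 0 were lower, against 3.83%. These same 5 genes had no overlap between genotypes in either segment, with the knockout higher, against 7.81% of all genes. All 10 genes lay above the dimmest 25% of genes.

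In ascending aorta alone, limma called 0 of the 10 genes and 0% of all genes. At an unadjusted limma p under 0.05, 2 were higher, Col11a1 and Col12a1, against 5.31% of all genes. The groups did not overlap in 5 genes with the knockout higher, against 21.5% of all genes, and in 1 with the knockout lower, Col14a1, against 18.3%. The median change was 0.28, beside -0.01 over all genes and 0.25 over the brightest 20%, and without wild-type ascending replicate 1 it was 0.45.

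In descending aorta alone, limma again called 0 of the 10 genes, against 0.00451% of all genes. Col11a1 and Col12a1 were the 2 genes with an unadjusted limma p under 0.05, both higher, against 3.63% of all genes. The groups did not overlap in 8 genes, all with the knockout higher, against 21.6% of all genes; Col1a2 and Col14a1 overlapped. The median change was 0.44, beside 0.03 over all genes and 0.23 over the brightest 20%.

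**Figure D4:**
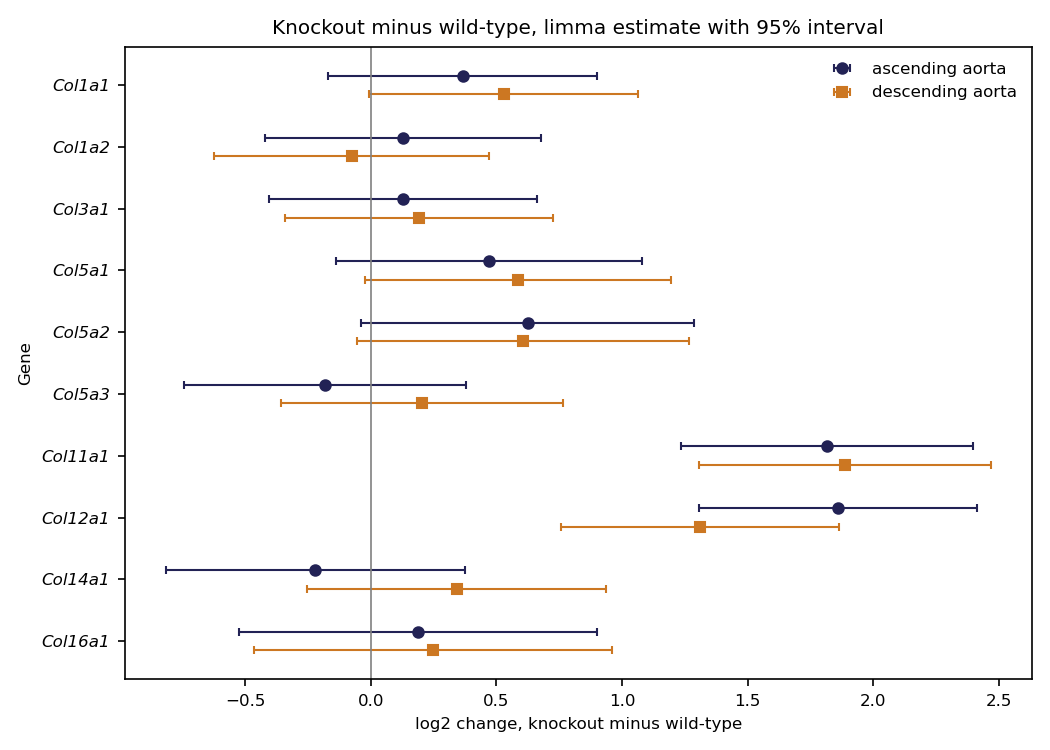
Log2 change, knockout minus wild-type (horizontal axis), of each collagen gene in ascending (circles) and descending aorta (squares), with the 95% interval of the limma fit as bars. The intervals of Col11a1 and Col12a1 lie above 0 in both segments, from 1.23 and 1.31 upward in ascending aorta and from 1.31 and 0.76 upward in descending aorta; those of the other 8 genes include 0.

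Whether the knockout changed these genes differently in the segments was tested as the difference between both effects. Limma called 0 of the 10 genes and 0% of all genes, and 0 of the 10 had an unadjusted p under 0.05, against 3.30% of all genes. The largest differences, ascending minus descending, were -0.56 (SE 0.38; 95% interval -1.41 to 0.28) in Col14a1 and 0.55 (SE 0.35; 95% interval -0.23 to 1.33) in Col12a1. The value of Col14a1 was -0.83 without wild-type descending replicate 1 and -0.30 without replicate 2 of that group. For Col11a1 the difference was -0.07 (SE 0.37), with a 95% interval from -0.89 to 0.75.

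The same arrays were compared between segments. In wild-type aorta Col12a1 was 1.13 lower in ascending than in descending aorta on the log2 scale (log2 difference -1.13, SE 0.25), with an unadjusted limma p of 0.00119 and an adjusted p of 0.403. For Col11a1 the log2 difference was -0.66 (SE 0.26), with an unadjusted limma p of 0.0298 and an adjusted p of 0.774. These were the 2 genes of the 10 with an unadjusted p under 0.05, against 2.98% of all genes for this direction. Limma called 0 of the 10 and 0.00902% of all genes. The ascending arrays were below the descending ones without overlap in 4 genes (Col1a1, Col1a2, Col11a1 and Col12a1), against 14.1% of all genes, and above them in 1, Col14a1, against 15.9%.

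In knockout aorta the log2 difference was -0.73 (SE 0.26) for Col11a1 and -0.58 (SE 0.25) for Col12a1, with unadjusted limma p of 0.0188 and 0.0432 and an adjusted p of 1.00 for both. These were again the 2 genes under 0.05, against 2.04% of all genes for this direction. Limma called 0 of the 10 genes and 0% of all genes. Both ascending arrays lay below both descending arrays in 9 of the 10 genes, against 20.8% of all genes, and above them in Col5a2, against 18.3%. The log2 differences of the 9 genes ran from -0.13 in Col1a2 to -0.73 in Col11a1, and the median over the 10 was -0.25, beside -0.01 over all genes. In wild-type the median was -0.15, beside 0.01 over all genes, and without wild-type ascending replicate 2 it was 0.0098. Each segment comparison uses arrays that also enter the knockout comparisons, so these results are not independent of those above. Values of cell type markers between segments are given further below.

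**Figure D5:**
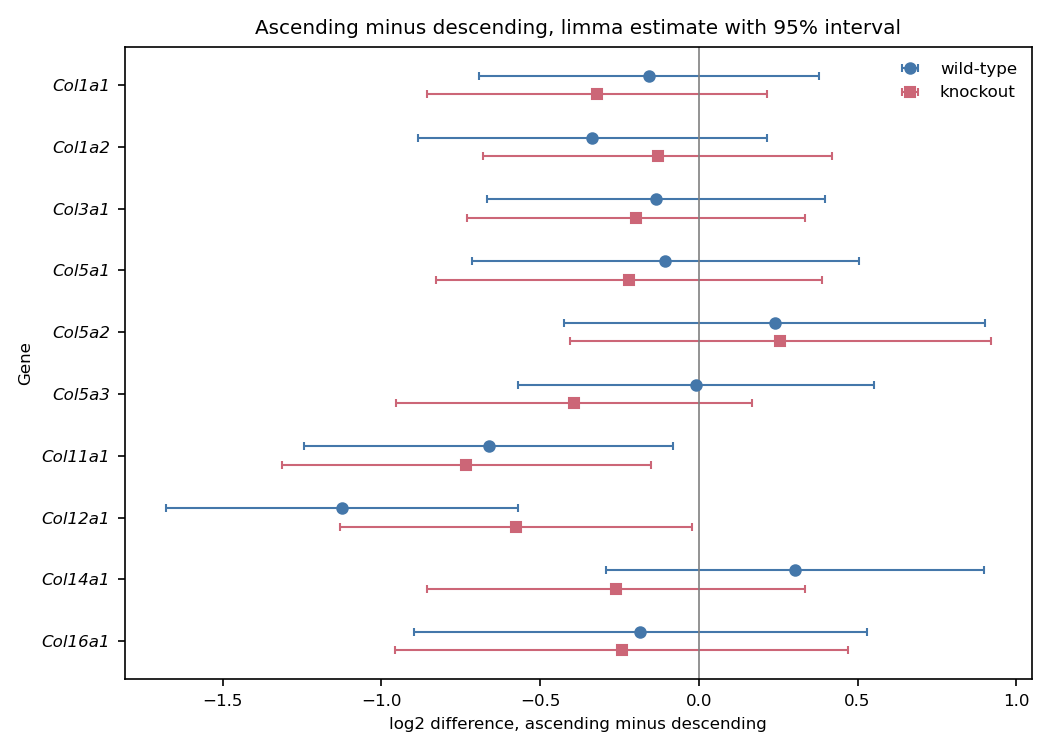
Log2 difference, ascending minus descending aorta (horizontal axis), of each collagen gene in wild-type (circles) and knockout (squares), with the 95% interval of the limma fit as bars. Col11a1 and Col12a1 are the 2 genes whose intervals lie below 0 in both genotypes; Col14a1 stands at 0.30 in wild-type and at -0.26 in knockout.

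Ordered by group mean, Col11a1 ran from wild-type ascending (5.24 ± 0.19, SD, n = 2) over wild-type descending (5.90 ± 0.29) and knockout ascending (7.06 ± 0.12) to knockout descending aorta (7.79 ± 0.01). Col12a1 followed the same order, with 7.05 ± 0.14, 8.18 ± 0.19, 8.91 ± 0.06 and 9.49 ± 0.13. No 2 neighbouring groups in these orders overlapped. Col1a1 had the same order, from 10.67 ± 0.16 over 10.83 ± 0.01 and 11.04 ± 0.03 to 11.36 ± 0.10, again without overlap of neighbouring groups. How many of all genes run in such an order was not counted, so these orders are a description only.

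Relations between chains were described within each array, where a scale factor common to all genes of an array cancels. Their 0 depends on the probes, so only differences between arrays are read, and none was tested. Col11a1 minus Col5a1, chains that can share molecules, was -2.80 and -2.55 in wild-type ascending, -2.07 and -2.18 in wild-type descending, -1.18 and -1.48 in knockout ascending and -0.75 and -0.88 in knockout descending aorta. The 4 knockout values were all above the 4 wild-type values, and the averaged shift was 1.32, with 1.35 in ascending and 1.30 in descending aorta. Col12a1 minus Col14a1, both FACIT genes, ran from -1.80 to -0.10 in the wild-type arrays and from 0.35 to 0.74 in the knockout arrays, with an averaged shift of 1.53, made of 2.08 in ascending and 0.97 in descending aorta. Col5a2 minus Col5a1, the main type V chains, overlapped between genotypes, with an averaged shift of 0.09. Col3a1 minus Col1a1 was 0.68 and 0.30 in wild-type ascending, 0.52 and 0.42 in wild-type descending, 0.33 and 0.17 in knockout ascending and 0.14 and 0.13 in knockout descending aorta, with an averaged shift of -0.29 and overlap in ascending aorta.

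The genes whose values ran most like a member over the 8 arrays were Nav1 (Pearson r = 0.993) and Ostf1 (0.985) for Col11a1, and Ifitm3 (0.987) and Ddx60 (0.987) for Col12a1. They are the top 2 of all other genes for each of both collagens and are given as a description: the arrays fall into 4 groups, and genes that differ between the groups run alike. The averaged log2 change was 0.69 for Nav1, 1.00 for Ostf1, 0.50 for Ifitm3 and 0.38 for Ddx60, and none of the 4 was called. Between members, r was 0.966 for Col11a1 with Col12a1, 0.925 for Col11a1 with Col1a1 and 0.921 for Col12a1 with Col1a1 over the same 8 arrays.

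Of 11 other fibrillar and FACIT collagen genes 10 were measured. Of these (Col2a1, Col11a2, Col24a1, Col27a1, Col9a1, Col9a2, Col9a3, Col19a1, Col20a1 and Col22a1), limma called 0 in the averaged effect, 0 had an unadjusted p under 0.05, 3 lay above 0, and the median log2 change was -0.06. Col2a1, the main fibrillar collagen of cartilage and the usual partner of type XI collagen, stood at 0.15 (SE 0.20; adjusted p 0.795), and Col11a2, the alpha-2 chain of type XI, at 0.01 (SE 0.16; adjusted p 0.985). Col19a1 stood at -0.34, Col9a2 at -0.28 and Col24a1 at -0.24. Col19a1 was dim, with log2 values from 3.60 to 4.50, beside a lower quartile of 4.08 for the means of all genes. Col11a2 ran from 5.14 to 5.39, not far above the array medians of named genes, 4.98 to 5.08. How far a low signal understates the changes in this list was not measured.

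Genes whose products modify, process and cross-link collagen had 23 of 27 measured members above 0 in the averaged effect, with a median log2 change of 0.48. Limma called 0 of them. At an unadjusted p under 0.05, 12 were higher, against 7.57% of all genes, and 1, Pcolce2, was lower, against 3.83%. The smallest p were those of Plod2, a lysyl hydroxylase of collagen telopeptides (1.31, SE 0.23; adjusted p 0.103), of the prolyl hydroxylase subunits P4ha1 (1.14, SE 0.22; adjusted p 0.132) and P4ha3 (0.91, SE 0.18; adjusted p 0.132), and of Lox, which cross-links collagen and elastin (0.81, SE 0.19; adjusted p 0.197). Among the proteases that cut off the propeptides and their enhancers, Bmp1 stood at 0.59, Pcolce at 0.59 and Pcolce2 at -0.43.

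Of 20 measured fibril-binding proteins, 16 lay above 0, with a median of 0.23 and 5 higher at an unadjusted p under 0.05. Limma called 1, Thbs1, which encodes thrombospondin 1 (2.54, SE 0.26; adjusted p 0.0144). Fn1, which encodes fibronectin, needed for cells to lay down type I collagen, stood at 0.90 (adjusted p 0.132), Thbs2 at 0.89 and Prelp at 0.99. Of 9 measured collagen receptors, 8 lay above 0, with a median of 0.44 and 4 higher at an unadjusted p under 0.05. Limma called 1, Itga11, the integrin subunit that binds fibrillar collagen on fibroblasts (1.91, SE 0.25; adjusted p 0.0335). Its log2 values in wild-type ascending aorta were far apart, at 3.95 and 5.08, against 6.67 and 6.49 in knockout ascending aorta. Whether the calls of Thbs1 and Itga11 hold under other settings or with arrays left out was not tested gene by gene. Itga2 stood at 0.63, Mrc2, an uptake receptor for collagen, at 0.53, and Itga1 at 0.67. Of 9 collagen-degrading proteases, 7 lay above 0, with a median of 0.42, and limma called 0; 5 had an unadjusted p under 0.05, all higher, with Mmp8 at 0.73, Ctsl at 0.61, Mmp2 at 0.63 and Mmp9 at 0.59. Beside the counts of these 3 lists at that unadjusted p, 7.57% of all genes were higher. These lists share arrays with the collagens, and brightness moves with the change, since the brightest 20% of genes had a median of 0.24.

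Markers of cells that make collagen were set beside these values. Smooth muscle markers were 8 of 8 measured and outside the dimmest 25% of genes, with summed log2 levels of 13.10 to 13.26 in wild-type and 13.25 to 13.55 in knockout arrays. Limma called 0 of them, 7 lay above 0 with a median log2 change of 0.27, and 2 were higher at an unadjusted p under 0.05, against 7.57% of all genes: Smtn, which encodes smoothelin, and Lmod1, which encodes leiomodin 1, at 0.58 each. By segment their median was 0.30 in ascending and 0.20 in descending aorta. Fibroblast markers, 8 of 8 measured, had summed log2 levels of 12.35 to 12.69 in wild-type and 12.51 to 12.65 in knockout arrays, and 6 lay above 0, with a median log2 change of 0.11 and 0 with an unadjusted p under 0.05. By segment, 3 of the 8 lay above 0 in ascending aorta, with a median of -0.13, and 5 in descending aorta, with a median of 0.17 and 2 higher at an unadjusted p under 0.05, against 3.63% of all genes. Over all genes the median was -0.0013, and over the brightest 20% it was 0.24. Between segments, as ascending minus descending, the smooth muscle median was 0.12 in wild-type (5 of 8 above 0) and 0.22 in knockout (6 of 8). The fibroblast median was 0.12 in wild-type (4 of 8) and -0.07 in knockout (3 of 8). Limma called 1 fibroblast marker in wild-type, Tcf21, higher in ascending aorta, against 0.00902% of all genes. The part of these cells in the collagen values was not tested.

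Since type XI collagen is a cartilage collagen, cartilage, bone and tendon markers were read as well. Of 8 cartilage markers 4 lay above 0, with a median of 0.01, and Matn1, Matn3 and Cnmd were among the dimmest 25% of genes. The summed level ran from 9.77 to 9.82 in wild-type ascending and from 10.32 to 10.52 in knockout ascending aorta, and from 8.80 to 9.19 against 9.55 to 9.94 in descending aorta. Acan was the brightest of these markers on every array, and the sum mainly follows it. Alone it stood at 9.47 and 9.37 in wild-type ascending and at 10.07 and 10.32 in knockout ascending aorta. The averaged log2 change of Acan, which encodes aggrecan and is also made by vascular smooth muscle, was 0.96 (SE 0.18; adjusted p 0.132). That of Matn1, matrilin 1 of cartilage, was -0.67 (SE 0.21; adjusted p 0.314). Of 5 bone markers 1 lay above 0, with a median of -0.10, and Bglap, Ibsp and Dmp1 were among the dimmest 25%; the summed level ran from 7.05 to 7.47 in wild-type and from 6.60 to 7.22 in knockout arrays. Of 4 tendon markers 3 lay above 0, with a median of 0.33. Of these, Mkx, at 0.03, was among the dimmest 25% of genes, and Thbs4 stood at 0.62. Tnmd stood at 1.12 (SE 0.21; adjusted p 0.130) and Scx, a tendon transcription factor, at -0.18; the summed level ran from 7.35 to 7.67 in wild-type and from 7.84 to 8.18 in knockout arrays. The part of tendon-like tissue in the rise of Col11a1 and Col12a1 was not tested.

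Markers of other cell types were read in the same way. Myeloid markers lay above 0 in 8 of 8, with a median of 0.89 and summed levels of 9.70 to 10.74 in wild-type and 10.76 to 11.34 in knockout arrays. Endothelial markers lay below 0 in 8 of 8 (median -0.47; summed levels 10.49 to 11.09 against 9.76 to 10.97), as did adipocyte markers (median -0.87; 11.11 to 12.68 against 10.79 to 11.67). Skeletal muscle markers lay below 0 in 7 of 8 (median -0.62; 8.55 to 12.36 against 8.90 to 10.10), and cardiomyocyte markers above 0 in 7 of 8 (median 0.38; 9.48 to 10.59 against 10.59 to 11.71). Limma called 0 of the markers of these 5 types in the averaged effect. At an unadjusted limma p under 0.05, 7 myeloid and 3 cardiomyocyte markers were higher, and 3 endothelial, 5 adipocyte and 1 skeletal muscle marker were lower, against 7.57% of all genes higher and 3.83% lower. The averages join 2 segments whose values were not alike. Skeletal muscle markers lay above 0 in 0 of 8 in ascending aorta (median -1.86) and in 6 of 8 in descending aorta (median 0.57). Endothelial markers lay above 0 in 0 of 8 in ascending (median -0.84) and in 2 of 8 in descending aorta (median -0.11). The medians in ascending and descending aorta were 1.25 and 0.55 for myeloid, -0.54 and -0.97 for adipocyte, and 0.20 and 1.17 for cardiomyocyte markers. These differences between segments were not tested over the lists. Markers were also set between segments, as median ascending minus descending. Wild-type medians were 2.13 for skeletal muscle (8 of 8 above 0), -1.16 for adipocyte and -0.32 for myeloid markers (each 0 of 8). They were -0.20 for endothelial and -0.07 for cardiomyocyte markers. Knockout medians were -0.88 for endothelial and -0.62 for adipocyte (each 0 of 8), -0.91 for cardiomyocyte, -0.08 for myeloid and 0.21 for skeletal muscle markers. The part of these cell types in the collagen values, between genotypes or segments, was not tested.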

How the data were processed

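Each array held RNA of 1 pool of 8 aortic segments; per the labels' protocols, 5 ng of total RNA was amplified and given a biotin label. The deposited table holds log2 values, which the authors made by RMA in Affymetrix Expression Console according to the submitters' processing notes. Versions, and the build of the array design, were not given in the sources used here. Background correction and common scaling of the arrays, as RMA does them, can understate the differences of dim genes, which was not measured here.

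Of 41345 rows, 23521 carried 1 gene symbol in the platform annotation, 1814 several and 16010 none, and only the first were tested. For 1082 genes with more than 1 row, the brightest row by mean was used. Limma 3.58.1 (R 4.3.3) fitted 1 mean per group to the 22180 genes over all 8 arrays, with 4 residual and 5.52 prior degrees of freedom. P-values were adjusted by Benjamini-Hochberg over all genes within a comparison. The median standard error was 0.30 within a segment and 0.21 averaged, and the number of arrays limits the precision. Settings tried were array centring, quantile normalization, a filter on dim genes, other rows, a replicate block, a fit to the compared groups alone, trended and robust variances, an adjusted p under 0.1, and arrays left out. The procedure was tested on simulated data. Figures were drawn with matplotlib 3.10.9.

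The members, lists and alternatives were chosen with earlier results of these data known. All 10 members are named, and from each list the called genes and up to 4 with the smallest p in the averaged effect; other list genes were named after their values were seen. Of 151 listed genes 143 had a row of their own.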

Additional observations from a re-analysis of the deposited data

Results flagged for a closer look

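Col14a1 was the 1 gene of the 10 whose arrays moved in opposite ways between genotypes. In wild-type both ascending arrays (8.75 and 8.69) lay above both descending arrays (8.68 and 8.15), and in knockout both (8.52 and 8.47) lay below them (8.86 and 8.66). The wild-type groups were set apart by a gap much smaller than the SD of the descending pair, 0.38 (n = 2). The difference between both segment differences was -0.56 (SE 0.38), with an unadjusted limma p of 0.166 and an adjusted p of 1.00, so it was not called. Without wild-type descending replicate 1 it was -0.83, and without replicate 2 of that group -0.30.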

How the results depend on the processing

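In the averaged effect 2 of the 10 genes were called. The count was 0 when every row was tested, a fit that adjusts over more rows and also takes its prior variance from them, so that the cause was not told apart, and 0 to 2 with each array left out in turn; it was 2 in all other fits of the same comparison. In the other 5 comparisons it was 0 under every setting run. The count over all genes in the averaged effect was 16, and 35 without the dimmest 25% of genes, 50 at an adjusted p under 0.1, 1 with every row tested, 25 without both wild-type replicate 2 arrays and 0 to 50 with each array left out. Col11a1 and Col12a1 kept their direction in all 17 alternatives of the averaged effect, which groups without overlap fix when arrays are only left out. The members' median ran from 0.23 to 0.42 there, and with each array left out from 0.25 to 0.45 in the ascending knockout effect and from -0.20 to 0.0098 in the segment difference in wild-type.

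The groups share replicate numbers, and no label states that a number pairs pools. Deviations of same-numbered arrays correlated between -0.08 and 0.29 over the 6 pairs of groups. With the replicate block the count stayed at 2 (adjusted p 0.0192 for Col11a1 and 0.0256 for Col12a1), and the count over all genes was 19.

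With each array left out in turn, the log2 values that changed sign had these ranges. Col1a2 ran from -0.057 to 0.11, Col5a3 ran from -0.062 to 0.082, Col14a1 ran from -0.074 to 0.19 and Col16a1 ran from -0.014 to 0.45 in the averaged knockout effect. Col1a2 ran from -0.038 to 0.30 and Col16a1 ran from -0.27 to 0.65 in the ascending knockout effect. Col5a1 ran from -0.36 to 0.15, Col5a2 ran from -0.073 to 0.55, Col5a3 ran from -0.10 to 0.080 and Col16a1 ran from -0.65 to 0.28 in the segment difference in wild-type. Col3a1 ran from -0.14 to 0.010, Col5a1 ran from -0.37 to 0.14, Col5a2 ran from -0.29 to 0.33, Col11a1 ran from -0.28 to 0.14 and Col16a1 ran from -0.52 to 0.40 in the difference between both knockout effects. After quantile normalization sign changes gave -0.038 for Col5a3 in the averaged knockout effect, -0.082 for Col14a1 in the averaged knockout effect and -0.067 for Col5a2 in the difference between both knockout effects. Without both wild-type replicate 2 arrays sign changes gave -0.089 for Col14a1 in the averaged knockout effect, -0.028 for Col16a1 in the averaged knockout effect, -0.27 for Col16a1 in the ascending knockout effect, 0.16 for Col5a3 in the segment difference in wild-type, 0.25 for Col16a1 in the segment difference in wild-type, -0.072 for Col5a2 in the difference between both knockout effects and 0.0037 for Col11a1 in the difference between both knockout effects. With each array centred on its median sign changes gave 0.036 for Col1a2 in the descending knockout effect, 0.016 for Col5a3 in the segment difference in wild-type and -0.025 for Col5a2 in the difference between both knockout effects. With the mean of the rows of a gene sign changes gave 0.17 for Col1a2 in the descending knockout effect, 0.0066 for Col5a1 in the segment difference in wild-type and -0.020 for Col1a2 in the difference between both knockout effects. None of these genes was called in those comparisons, and the cause was not tested. The number of arrays and the brightness of the dimmer genes limit what could be detected.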
